A study of Rattus norvegicus with 29 samples.

Results

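The 10 genes described here belong to the response to reactive chemicals that the transcription factor NRF2 governs in liver. They are Keap1 and Nfe2l2 (the sensor and NRF2 itself), the quinone and carbonyl reductases Nqo1, Cbr1 and Cbr3, the epoxide hydrolase Ephx1, the heme-degrading Hmox1, the thioredoxin-system enzymes Txnrd1 and Srxn1, and Osgin1. They were taken as the array rows whose only gene symbol in the platform annotation is one of these names. That gave 11 transcript clusters (probe groups that each cover a transcribed locus) of 27342 on the array, of which 15097 carry 1 symbol. Cbr1 has 2 clusters and each other gene has 1.

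KEAP1 holds NRF2 and hands it over for degradation. When electrophiles or oxidants modify cysteines of KEAP1, NRF2 escapes, pairs with small MAF proteins in the nucleus and binds antioxidant response elements near genes that detoxify quinones, break down heme and recycle thioredoxin. NRF2 is controlled to a large extent at the protein level, which the arrays did not measure.

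The study dosed male Sprague-Dawley rats, 6 to 7 weeks old, once daily by gavage with PMCol (2,2,5,7,8-pentamethyl-6-chromanol, a vitamin E analogue without the long tail) or with the vehicle alone, 1% methylcellulose in water. The groups were 2000 mg/kg PMCol for 7 days (n = 6) with its vehicle group (n = 6), all killed on day 8. For 28 days of dosing the groups, killed on day 29, were vehicle (n = 6), 200 mg/kg (n = 6) and 2000 mg/kg (n = 5). RNA of the left liver lobe of each animal went on 1 Affymetrix whole-transcript array, and the labels call the animals of a group biological replicates.

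Each value below is a log2 signal minus the median of that cluster over the 29 animals. It shows how animals differ, and it gives no level, so genes cannot be ranked by abundance and liver markers cannot be checked for presence. A change is a difference of group means on this log2 scale, given ± its SE from 1 limma model that holds every animal. A cluster is said to have risen or fallen when its adjusted p, by the Benjamini-Hochberg method over all 27342 clusters, was under 0.05. The number of arrays limits the precision. In whole liver, fewer cells of a type and less RNA per cell cannot be told apart. Array medians lay between -0.023 and 0.029, and the 200 mg/kg and 2000 mg/kg comparisons at day 29 share their vehicle animals.

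The antioxidant response element was looked for in the promoters, because NRF2 acts through it. RefSeq promoter windows of the rat genome build GRCr8, from 250 bases before to 50 bases after an annotated start, were found for 9 of the 10 genes, all but Hmox1. There were 11 windows, since Ephx1 and Txnrd1 each have 2 starts in that table. The core motif TGACNNNGC, searched on both strands, was in 3 of these windows, of Ephx1, Txnrd1 and Nfe2l2. Of all 33469 windows of this length, 12.1% hold it. The 3 windows are printed with Nqo1's, the gene with the largest change, all on the minus strand and read 5′ to 3′, with the motif in capitals.
Ephx1, second start, chr13:95263068-95263367: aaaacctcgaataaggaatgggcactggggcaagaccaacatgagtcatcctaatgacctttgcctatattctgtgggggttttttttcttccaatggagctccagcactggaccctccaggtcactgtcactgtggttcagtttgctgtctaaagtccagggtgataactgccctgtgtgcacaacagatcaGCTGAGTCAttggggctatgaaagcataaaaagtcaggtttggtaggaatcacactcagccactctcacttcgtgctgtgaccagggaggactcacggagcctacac
Txnrd1, second start, chr7:22755855-22756154: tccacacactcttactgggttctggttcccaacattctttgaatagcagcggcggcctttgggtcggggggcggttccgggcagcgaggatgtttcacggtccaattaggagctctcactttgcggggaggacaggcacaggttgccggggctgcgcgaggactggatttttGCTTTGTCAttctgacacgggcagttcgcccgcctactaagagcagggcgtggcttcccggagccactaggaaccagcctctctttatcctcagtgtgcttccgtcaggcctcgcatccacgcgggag
Nfe2l2, chr3:81028950-81029249: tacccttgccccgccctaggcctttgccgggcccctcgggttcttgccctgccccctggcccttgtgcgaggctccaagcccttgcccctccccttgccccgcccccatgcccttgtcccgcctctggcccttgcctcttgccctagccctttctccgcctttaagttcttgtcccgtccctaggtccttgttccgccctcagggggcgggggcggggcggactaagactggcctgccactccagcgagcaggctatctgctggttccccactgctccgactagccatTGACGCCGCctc
Nqo1, chr19:52220218-52220517: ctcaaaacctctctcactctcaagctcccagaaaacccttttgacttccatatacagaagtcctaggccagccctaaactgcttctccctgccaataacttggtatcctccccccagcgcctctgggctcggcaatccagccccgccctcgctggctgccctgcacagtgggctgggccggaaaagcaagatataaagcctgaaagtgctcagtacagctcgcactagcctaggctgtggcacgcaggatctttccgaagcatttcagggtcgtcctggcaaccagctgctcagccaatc
The Ephx1 match, 57 bases before the start, reads TGACTCAGC on the opposite strand. That fully spelled form, itself a case of the core motif, is in 0.415% of all windows. The Txnrd1 match lies 78 bases before the start, also on the opposite strand, and the Nfe2l2 match begins 38 bases after the start. In the Nqo1 window and the remaining windows the core motif was not found, which says only that this spelling is not in them. Other spellings of the element, and bases outside these windows, were not searched, so an element farther from a start would be missed.

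At 2000 mg/kg the enzymes for quinones, carbonyls, epoxides, heme and thioredoxin rose together with Keap1, and Nfe2l2, Cbr3 and Osgin1 did not pass the test. At day 8, 8 of the 11 clusters (7 genes) rose, where 9.32% of all clusters rose. None of the 11 fell, also at an unadjusted p under 0.05 in limma, while 9.32% of all clusters fell. At day 29 the same 8 clusters rose, against 12.1% of all clusters, and 0 fell with or without adjustment, against 9.55%. The median change of the 11 clusters was 0.87 at day 8 and 0.77 at day 29, where the median of all clusters lay within 0.01 of 0.

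After 28 days at 200 mg/kg fewer of these genes passed the test. Nqo1, Ephx1, Srxn1 and Keap1 rose, 4 of the 11 clusters, against 1.37% of all clusters. In limma 0 of the 11 clusters fell, against 1.42% of all clusters, and 1, Osgin1, was lower at an unadjusted p under 0.05. The median change over the 11 clusters was 0.19.

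**Figure D1:**
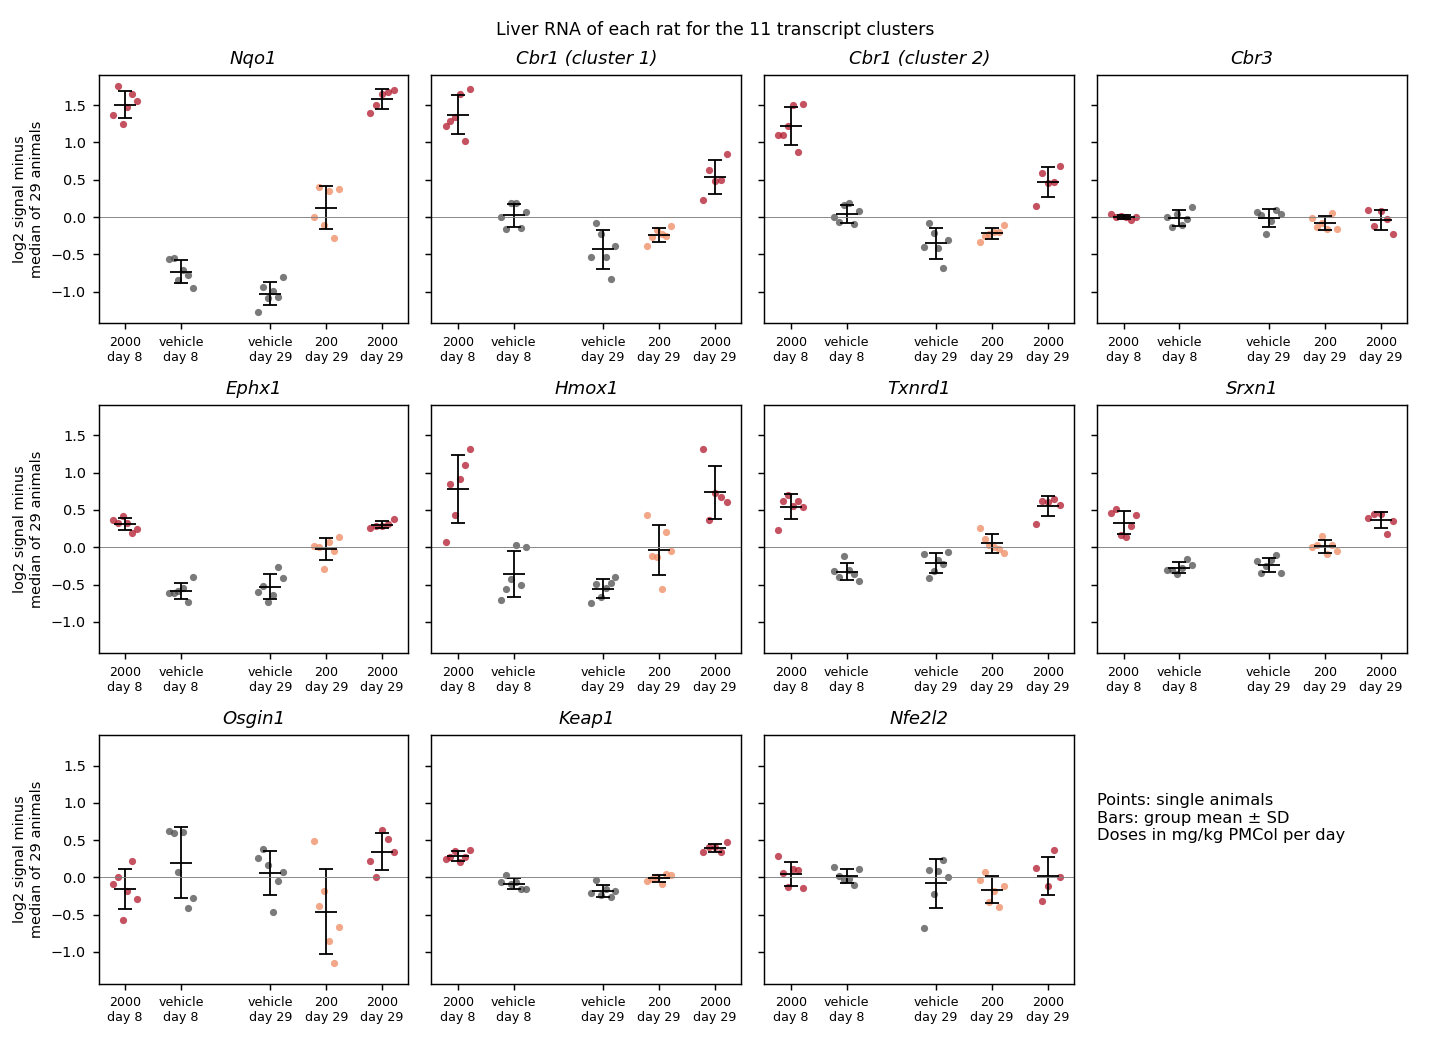
Log2 signal of each rat minus the cluster's median over 29 animals (vertical axis) for the 11 transcript clusters, by group along the horizontal axis, with doses in mg/kg. Points are single animals and bars show the group mean ± SD. Nqo1 spans the widest range, with the 2000 mg/kg animals between 1.24 and 1.76, while the groups of Cbr3 overlap throughout.

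Keap1, whose product senses electrophiles and restrains NRF2, rose at both doses. At day 8 its lowest, median and highest log2 values were 0.21, 0.28 and 0.36 in the 2000 mg/kg animals, against -0.16, -0.08 and 0.04 in vehicle animals. At day 29 the vehicle animals ran from -0.26 through a median of -0.20 to -0.03 and the 200 mg/kg animals from -0.08 through -0.01 to 0.04, and the 2000 mg/kg animals stood at 0.34, 0.41, 0.40, 0.34 and 0.47. Every 2000 mg/kg animal was above every vehicle animal of its day and above every 200 mg/kg animal, while the 200 mg/kg and vehicle animals overlapped.

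For Keap1 the change was 0.37 ± 0.04 at day 8 (adjusted p = 1e-07), a fold of 1.29. The day 29 change was 0.17 ± 0.04 for 200 mg/kg (adjusted p = 0.0214) and 0.57 ± 0.04 for 2000 mg/kg (adjusted p = 6.87e-11). These are small changes with a small spread: the SD within a group ranged from 0.05 to 0.08. The 200 mg/kg call was not held when 200 mg/kg replicate 5 or 6 was left out (adjusted p = 0.0614 and 0.0596), or vehicle day 29 replicate 3 or 5 (0.0511 and 0.0585).

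Nfe2l2, the gene of NRF2, differed little between groups. Its lowest, median and highest log2 values at day 8 were -0.14, 0.08 and 0.29 after 2000 mg/kg, against -0.10, 0.00 and 0.14 in vehicle animals. The day 29 vehicle animals ran from -0.68 to 0.23, the 200 mg/kg animals from -0.40 to 0.08, and the 2000 mg/kg animals had 0.13, -0.32, -0.12, 0.37 and 0.01. All groups overlapped, and 1 vehicle animal was the lowest of the 29.

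The Nfe2l2 change at day 8 was 0.03 ± 0.12, with a 95% interval of -0.22 to 0.28 (adjusted p = 0.914). The day 29 values were -0.08 ± 0.12 for 200 mg/kg (adjusted p = 0.859) and 0.10 ± 0.13 for 2000 mg/kg, with an interval of -0.16 to 0.36 (adjusted p = 0.652). The upper bound at day 29 is a fold of 1.28, so a larger rise of this RNA lies outside the interval.

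Among other partners and controllers of NRF2, 18 of 20 listed genes were measured. At day 8, 4 rose and 2 fell after 2000 mg/kg, at day 29 5 rose and 1 fell, and at 200 mg/kg 0 rose and 1 fell. At an unadjusted p under 0.05 in limma, 3 were higher at 200 mg/kg. Over all clusters, 9.32% rose and 9.32% fell at day 8, 12.1% and 9.55% at day 29, and 1.37% and 1.42% at 200 mg/kg. Sqstm1, the p62 adaptor that draws KEAP1 into autophagy, rose by 0.47 ± 0.05 at day 8 and 0.36 ± 0.05 at day 29. Dpp3, a peptidase that binds KEAP1, rose by 0.40 ± 0.09 at day 29 and had 0.23 ± 0.09 at day 8 (adjusted p = 0.0728). Nfe2l1, a relative of NRF2, rose by 0.34 ± 0.05 at day 29. Rbx1, the RING subunit of the ligase that KEAP1 serves, rose by 0.27 ± 0.06, whereas Crebbp, a coactivator of NRF2, fell by 0.29 ± 0.06. The median of the list at day 29 was 0.04.

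Nqo1, which reduces quinones to hydroquinones, had the largest change of the 10 genes in each of the 3 comparisons with vehicle. At day 8 the 2000 mg/kg animals had a lowest, median and highest log2 value of 1.24, 1.51 and 1.76, against -0.95, -0.74 and -0.55 in vehicle animals. By dose at day 29, the vehicle animals ran from -1.27 through -1.03 to -0.80, the 200 mg/kg animals from -0.28 through 0.17 to 0.40, and the 2000 mg/kg animals had 1.39, 1.51, 1.65, 1.68 and 1.70. None of the 3 dose groups at day 29 overlapped with another, and neither did the groups at day 8.

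In log2 units Nqo1 rose by 2.24 ± 0.11 after 7 days at 2000 mg/kg (adjusted p = 8.43e-15), a fold of 4.73 with a 95% interval of 4.06 to 5.51. After 28 days it rose by 1.15 ± 0.11 at 200 mg/kg (adjusted p = 7.03e-08), a fold of 2.22 (1.91 to 2.59). At 2000 mg/kg the 28-day rise was 2.61 ± 0.11 (adjusted p = 7.71e-16), a fold of 6.11 (5.20 to 7.17). By absolute change Nqo1 ranked 27 among all 27342 clusters at day 8, and at day 29 it ranked 29 at 200 mg/kg and 20 at 2000 mg/kg. An offset added before the log is not given in the sources used here, and one would make such folds too small where a gene is dim.

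In human liver the bile duct cells contain NQO1, and 1 of the 4 measured markers of these cells, Epcam, passed the test. Epcam rose by 0.82 ± 0.11 at day 8 and by 0.88 ± 0.12 at day 29 in the 2000 mg/kg animals, where 9.32% and 12.1% of all clusters rose. At an unadjusted p under 0.05 in limma, 1 of the 4 was higher at day 8, 2 at 200 mg/kg and 3 at 2000 mg/kg on day 29, and 0 were lower. At day 8 the mean of the 4 markers per animal ranged from -0.0039 to 0.25 after 2000 mg/kg, against -0.08 to -0.01 in vehicle animals. It ranged from 0.01 to 0.38 in the 2000 mg/kg animals at day 29, against -0.24 to 0.04 in vehicle animals. These means include Epcam, and the median change of the 4 markers at 2000 mg/kg was 0.01 at day 8 and 0.19 at day 29. The part of these markers in the Nqo1 values was not tested.

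Cbr1, a cytosolic carbonyl reductase that also acts on quinones, rose at 2000 mg/kg and did not pass the test at 200 mg/kg. Its first cluster had a lowest, median and highest log2 value of 1.02, 1.32 and 1.71 after 2000 mg/kg at day 8, against -0.16, 0.03 and 0.19 in vehicle animals. At day 29 that cluster ran from -0.82 through -0.46 to -0.09 in vehicle animals and from -0.39 through -0.24 to -0.12 at 200 mg/kg, and the 2000 mg/kg animals had 0.23, 0.63, 0.49, 0.50 and 0.85. The 2000 mg/kg animals stood above all others of their day. All 200 mg/kg animals lay inside the vehicle range.

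The 2 Cbr1 clusters gave nearly the same picture, with changes of 1.35 ± 0.11 and 1.17 ± 0.10 at day 8 (adjusted p = 9.72e-10 and 1.13e-09). At day 29 they rose by 0.97 ± 0.12 and 0.82 ± 0.11 at 2000 mg/kg (adjusted p = 7.15e-07 and 1.19e-06), which are folds of 1.96 and 1.77. The 200 mg/kg values were 0.19 ± 0.11 and 0.13 ± 0.10 (adjusted p = 0.496 and 0.653). In no animal did the 2 clusters differ by more than 0.20, and both carry the same transcript accessions in the annotation, so they are not independent. GRCr8 places 3 protein-coding Cbr1-like genes (Cbr1l1, Cbr1l2 and Cbr1l3) between Cbr1 and Cbr3, and none of these has a cluster of its own by symbol. Probes may be shared with those copies, so which copy gave the signal is uncertain.

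Cbr3, a close relative of Cbr1 from the same locus, was flat. Over all 29 animals its log2 values lay between -0.23 and 0.14. After 2000 mg/kg the change was 0.02 ± 0.06 at day 8, with a 95% interval of -0.10 to 0.14 (adjusted p = 0.877). At day 29 it was -0.07 ± 0.06 at 200 mg/kg (adjusted p = 0.697) and -0.03 ± 0.06 at 2000 mg/kg, with an interval of -0.15 to 0.10 (adjusted p = 0.815). The intervals at 2000 mg/kg leave out measured changes as large as those of its neighbour Cbr1. By the rounding of the values, the stored log2 signal of Cbr3 was below 8 in some animal. That of both Cbr1 clusters was 8 or more in all animals. An offset before the log would shrink the changes of a dim cluster most. The intervals therefore bound the measured signal, and whether the Cbr3 RNA changed more than this was not tested.

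Ephx1, the microsomal epoxide hydrolase that opens epoxides to diols, rose at both doses. The lowest, median and highest log2 values at day 8 were 0.19, 0.32 and 0.42 in 2000 mg/kg animals, against -0.74, -0.60 and -0.40 in vehicle animals. At day 29 vehicle animals ran from -0.73 through -0.56 to -0.26, 200 mg/kg animals from -0.30 through 0.01 to 0.13, and the 2000 mg/kg animals stood at 0.25, 0.29, 0.29, 0.32 and 0.37. Only the lowest 200 mg/kg animal reached into the vehicle range, and the 2000 mg/kg animals were above both other groups.

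Ephx1 rose by 0.90 ± 0.07 at day 8 (adjusted p = 1.54e-10), a fold of 1.86. At day 29 it rose by 0.51 ± 0.07 at 200 mg/kg (adjusted p = 5.41e-05) and by 0.83 ± 0.07 at 2000 mg/kg (adjusted p = 1.35e-09), folds of 1.42 and 1.78. Of 13 measured genes among 16 listed as other quinone, carbonyl and epoxide enzymes, 3 rose and 0 fell at day 8 and again 3 and 0 at day 29 after 2000 mg/kg, and 1 rose and 0 fell at 200 mg/kg. At an unadjusted p in limma, 1 was lower at day 8 and 0 were lower in the other 2 comparisons. Over all clusters, 9.32% rose and 9.32% fell at day 8, 12.1% and 9.55% at day 29, and 1.37% and 1.42% at 200 mg/kg. Por, the electron donor of the cytochromes P450, rose by 0.69 ± 0.11 at day 8 and 0.61 ± 0.12 at day 29. Ptgr1, a reductase of prostaglandins and leukotrienes, rose by 0.53 ± 0.12 and the aldehyde reductase Akr1a1 by 0.27 ± 0.06 at day 29. The median of the list at day 29 was 0.16.

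Hmox1, heme oxygenase, which splits heme into biliverdin, iron and carbon monoxide, rose at 2000 mg/kg, with the largest SE of the genes that rose. At day 8 the 2000 mg/kg animals had a lowest, median and highest log2 value of 0.07, 0.89 and 1.31, against -0.71, -0.46 and 0.03 in vehicle animals. The vehicle animals at day 29 ran from -0.75 through -0.52 to -0.40, the 200 mg/kg animals from -0.56 through -0.08 to 0.43, and the 2000 mg/kg animals had 1.31, 0.36, 0.73, 0.67 and 0.61. The groups at day 8 were separate by a narrow gap. At day 29 the 2000 mg/kg animals lay above all vehicle animals, and 4 of the 5 lay above all 200 mg/kg animals.

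The Hmox1 rise was 1.14 ± 0.18 at day 8 (adjusted p = 2.79e-05), a fold of 2.21 with a 95% interval of 1.71 to 2.85. By day 29 the rise was 1.29 ± 0.19 at 2000 mg/kg (adjusted p = 8.54e-06), a fold of 2.45 (1.87 to 3.21). At 200 mg/kg the difference was 0.52 ± 0.18, with 5 of 6 animals above all vehicle animals, and it did not pass the test (adjusted p = 0.136). Its size there is close to that of Ephx1, whose SE is 0.07.

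Macrophages of the liver are a known site of Hmox1, and their markers differed between groups in another way. Where 9.32% of all clusters fell at day 8, 12 of 12 measured Kupffer cell and macrophage markers fell after 2000 mg/kg. The markers fell by between 0.45 (Marco) and 1.16 (Clec4f). Their mean per animal ranged from -0.61 to 0.12 after 2000 mg/kg, against 0.36 to 1.29 in vehicle animals. At day 29, 0 of the 12 were called at either dose in limma, and 0 at an unadjusted p under 0.05. Their mean per animal then ranged from -0.80 to 0.48 after 2000 mg/kg, against -0.58 to 0.83 in vehicle animals. By group, the mean of these markers was 0.83 in vehicle animals at day 8 and -0.10 after 2000 mg/kg at day 8. At day 29 it was -0.20 in vehicle, -0.16 in 200 mg/kg and -0.22 in 2000 mg/kg animals. The day 8 vehicle group thus stood above every other group, and the cause was not tested. Hmox1 was higher at both days, with these markers lower at day 8 and not called at day 29. The part of these cells in the Hmox1 values was not tested.

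Other genes of heme synthesis, breakdown and transport moved in both directions. Of 17 measured genes of 20 listed, 6 rose and 3 fell at day 8 after 2000 mg/kg. At day 29, 7 rose and 3 fell at 2000 mg/kg, and 1 rose and 1 fell at 200 mg/kg. Over all clusters, 9.32% rose and 9.32% fell at day 8, 12.1% and 9.55% at day 29, and 1.37% and 1.42% at 200 mg/kg. Slc48a1, which carries heme out of lysosomes, rose by 0.94 ± 0.06 at day 8 and 1.02 ± 0.07 at day 29. Blvrb, biliverdin reductase B, rose by 0.52 ± 0.16 and 0.83 ± 0.17. Blvra, biliverdin reductase A, had 0.04 ± 0.11 and 0.05 ± 0.11 on these days (adjusted p = 0.859 and 0.801). The porphyrin exporter Abcg2 rose by 0.96 ± 0.14 at day 8 and 0.64 ± 0.15 at day 29.

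The iron exporter Slc40a1 had 0.03 ± 0.15 at day 8 (adjusted p = 0.934) and rose by 0.58 ± 0.16 at day 29 (adjusted p = 0.00699). Flvcr2, a transporter of the same family as the heme exporter, rose by 0.56 ± 0.07 at day 29. Alad, an early enzyme of heme synthesis, fell by 0.47 ± 0.05 at day 8 and by 0.24 ± 0.06 at day 29, and at 200 mg/kg it fell by 0.25 ± 0.05. Haptoglobin, Hp, which binds free hemoglobin in plasma, fell by 0.25 ± 0.05 and 0.29 ± 0.05 on the 2 days at 2000 mg/kg. The median change of the list was 0.06 at day 8 and 0.16 at day 29.

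Txnrd1, the cytosolic thioredoxin reductase that passes electrons from NADPH to thioredoxin, rose at 2000 mg/kg. Its lowest, median and highest log2 values at day 8 were 0.23, 0.59 and 0.70 in the 2000 mg/kg animals, against -0.45, -0.34 and -0.12 in vehicle animals. At day 29 vehicle animals ran from -0.41 through -0.20 to -0.07, 200 mg/kg animals from -0.08 through 0.02 to 0.26, and 2000 mg/kg animals had 0.31, 0.62, 0.61, 0.65 and 0.57. In each 2000 mg/kg group 1 animal was well below the rest, yet above every vehicle animal of its day.

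Txnrd1 rose by 0.87 ± 0.08 at day 8 (adjusted p = 1.5e-09), a fold of 1.83, and by 0.77 ± 0.08 at day 29 (adjusted p = 3.77e-08), a fold of 1.70. At 200 mg/kg the difference was 0.26 ± 0.08, with 5 of 6 animals above all vehicle animals, and it lay at the edge of the threshold (adjusted p = 0.0563). It passed without vehicle day 29 replicate 1 (adjusted p = 0.0432) or replicate 6 (adjusted p = 0.0478).

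Srxn1, sulfiredoxin, which restores peroxiredoxins that were oxidised too far, rose at both doses. At day 8 its lowest, median and highest log2 values were 0.14, 0.36 and 0.51 after 2000 mg/kg, against -0.36, -0.29 and -0.16 in vehicle animals. At day 29 the vehicle range was -0.35 to -0.11 with a median of -0.22, the 200 mg/kg range -0.09 to 0.15 with a median of 0.01, and the 2000 mg/kg animals had 0.39, 0.45, 0.45, 0.18 and 0.35. The 3 dose groups at day 29 did not overlap, and neither did the groups at day 8.

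The Srxn1 change was 0.60 ± 0.06 at day 8 (adjusted p = 3.02e-08) and 0.60 ± 0.06 at day 29 for 2000 mg/kg (adjusted p = 7.6e-08), both folds of 1.52. At 200 mg/kg it was 0.24 ± 0.06 (adjusted p = 0.0266), a fold of 1.18. That call was lost without 200 mg/kg replicate 3 or 5 (adjusted p = 0.0677 and 0.0585) and without vehicle day 29 replicate 2 or 6 (0.0574 and 0.0733).

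In the wider thioredoxin and glutaredoxin systems 20 of 24 listed genes were measured. At day 8, 7 rose and 4 fell after 2000 mg/kg, and at day 29 7 rose and 3 fell. At 200 mg/kg 0 were called either way in limma, and 2 were higher and 0 lower at an unadjusted p under 0.05. Over all clusters, 9.32% rose and 9.32% fell at day 8, 12.1% and 9.55% at day 29, and 1.37% and 1.42% at 200 mg/kg. Thioredoxin itself, Txn1, rose by 0.30 ± 0.05 at day 8 and 0.27 ± 0.06 at day 29. Txnl1, a thioredoxin-like protein, rose by 0.58 ± 0.06 and 0.38 ± 0.06, and the mitochondrial glutaredoxin Glrx2 by 0.28 ± 0.06 and 0.30 ± 0.06. Txnip, which binds and inhibits thioredoxin, fell by 0.37 ± 0.11 at day 8 and by 0.48 ± 0.11 at day 29.

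The peroxiredoxins named here split at day 29: Prdx5 and Prdx4 fell by 0.27 ± 0.05 and 0.25 ± 0.07, and Prdx6 and Prdx3 rose by 0.25 ± 0.07 and 0.25 ± 0.07. Prdx1 had 0.02 ± 0.06 at day 29 (adjusted p = 0.857), and at day 8 it rose by 0.19 ± 0.06 (adjusted p = 0.0177). Sesn3, a sestrin, showed -0.04 ± 0.08 at day 8 (adjusted p = 0.779) and rose by 0.61 ± 0.08 at day 29 (adjusted p = 2.3e-06). The median change of the list was 0.14 at day 8 and 0.12 at day 29, where Txnrd1 and Srxn1 had 0.77 and 0.60.

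Osgin1, an oxidative stress-induced growth inhibitor gene, did not pass the test in any comparison with vehicle. Its lowest, median and highest log2 values at day 8 were -0.57, -0.13 and 0.22 in the 2000 mg/kg animals, against -0.42, 0.34 and 0.62 in vehicle animals. At day 29 vehicle animals ran from -0.46 through 0.12 to 0.39 and 200 mg/kg animals from -1.15 through -0.53 to 0.49, and the 2000 mg/kg animals had 0.22, 0.00, 0.64, 0.52 and 0.35. Every group overlapped with its vehicle group, and the 200 mg/kg group was the most scattered, with an SD of 0.58.

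For Osgin1 the change was -0.35 ± 0.22 at day 8 (adjusted p = 0.306). At day 29 it was -0.52 ± 0.22 at 200 mg/kg (adjusted p = 0.249) and 0.28 ± 0.23 at 2000 mg/kg, with a 95% interval of -0.18 to 0.75 (adjusted p = 0.433). That interval includes the change of Srxn1 in the same comparison, 0.60. Without 200 mg/kg replicate 1, the highest of that group, the 200 mg/kg change was -0.71 and passed the test (adjusted p = 0.0365).

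**Figure D2:**
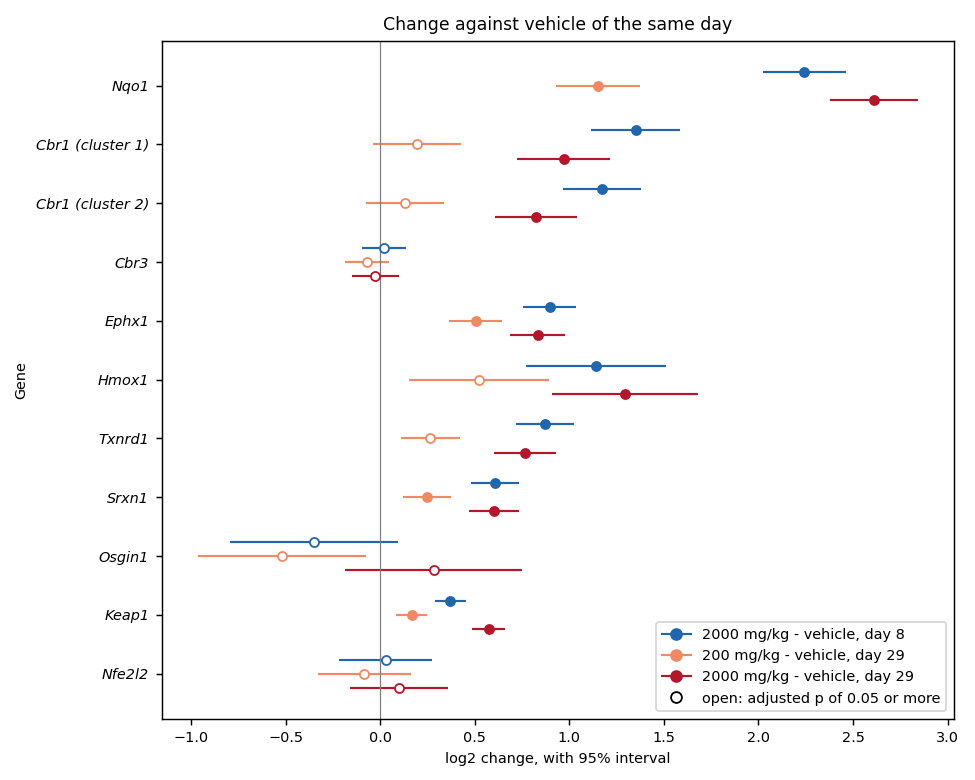
Log2 change against vehicle of the same day (horizontal axis) for each of the 11 clusters (vertical axis), with 95% intervals, for 2000 mg/kg at day 8, 200 mg/kg at day 29 and 2000 mg/kg at day 29. Filled points passed the test and open points had an adjusted p of 0.05 or more. Nqo1 stands to the right at 2.24, 1.15 and 2.61, and the points of Cbr3 and Nfe2l2 lie within 0.10 of 0.

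The dose comparison at day 29 asked how 2000 mg/kg differed from 200 mg/kg. Of the 11 clusters 9 (8 genes) were higher at 2000 mg/kg, against 6.05% of all clusters. In limma 0 of the 11 were lower, with or without adjustment, against 3.84% of all clusters. Nqo1 was higher by 1.46 ± 0.11 (adjusted p = 1.08e-09), a fold of 2.75, and the Cbr1 clusters by 0.78 ± 0.12 and 0.69 ± 0.11 (adjusted p = 6.66e-05 and 5.74e-05). Hmox1 was higher by 0.77 ± 0.19 (adjusted p = 0.00767) and Txnrd1 by 0.50 ± 0.08 (adjusted p = 8.49e-05).

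Smaller dose differences were those of Keap1 at 0.41 ± 0.04 (adjusted p = 1.75e-07), Srxn1 at 0.36 ± 0.06 (adjusted p = 0.000467) and Ephx1 at 0.33 ± 0.07 (adjusted p = 0.00313). Osgin1 differed by 0.80 ± 0.23 (adjusted p = 0.022), with 2 of the 5 animals at 2000 mg/kg above all 200 mg/kg animals. That call was lost without 200 mg/kg replicate 4 or 5 (adjusted p = 0.0518 and 0.0638) and without 2000 mg/kg day 29 replicate 3 or 4 (0.0571 and 0.0609). Cbr3 and Nfe2l2 differed by 0.04 ± 0.06 and 0.18 ± 0.13 (adjusted p = 0.743 and 0.43).

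The comparison of days asked whether the 2000 mg/kg effect after 28 doses differed from that after 7. In limma 0 of the 11 clusters were called, where 0.472% of all clusters had a higher and 0.304% a lower effect at day 29. At an unadjusted p under 0.05, 2 were higher (Nqo1 and Keap1) and 2 lower (the Cbr1 clusters). The Nqo1 effect was larger by 0.37 ± 0.16 at day 29, with a 95% interval of 0.05 to 0.69 (adjusted p = 0.264). That of Keap1 was larger by 0.20 ± 0.06 (adjusted p = 0.0911), and without vehicle day 29 replicate 2 this passed the test (adjusted p = 0.0298). Without that animal 563 clusters were called in all, against 212 with it.

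The Cbr1 clusters had effects smaller by 0.38 ± 0.17 and 0.35 ± 0.15 at day 29 (adjusted p = 0.282 and 0.253). For Srxn1 the difference of effects had an interval of -0.19 to 0.18, and for Txnrd1 of -0.33 to 0.12. The interval of Osgin1 was wide, from -0.01 to 1.28, and so was that of Hmox1, from -0.38 to 0.69.

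Between vehicle animals, killed on day 29 after 28 days of gavage or on day 8 after 7, both Cbr1 clusters were lower at day 29, with differences of -0.46 ± 0.11 and -0.39 ± 0.10 (adjusted p = 0.0307 and 0.0322). These were 2 of the 11 clusters, where 1.77% of all clusters fell. None rose, also at an unadjusted p in limma, against 0.962% of all clusters. Nqo1 had a difference of -0.29 ± 0.11 and Keap1 of -0.10 ± 0.04, neither past the threshold (adjusted p = 0.13 and 0.194). The 12 measured macrophage markers also were lower in vehicle animals at day 29, 12 of 12, with a mean per animal of -0.58 to 0.83 against 0.36 to 1.29 at day 8. Their part in the Cbr1 values was not tested.

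The Cbr1 differences between vehicle groups lay near the threshold. Over the 19 alternatives they kept their direction, from -0.53 to -0.38 for the first cluster and from -0.45 to -0.33 for the second. The first cluster lost its call without vehicle day 29 replicate 1, 4, 5 or 6 (adjusted p = 0.0655, 0.0598, 0.088 and 0.0604) and without vehicle day 8 replicate 3, 4 or 6 (0.0545, 0.0779 and 0.0649). The second cluster lost its call without the same animals (adjusted p between 0.0556 and 0.0926) and also without vehicle day 8 replicate 2 (0.0502). Keap1, in turn, passed with a difference of -0.13 without vehicle day 29 replicate 2 (adjusted p = 0.0463).

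**Figure D3:**
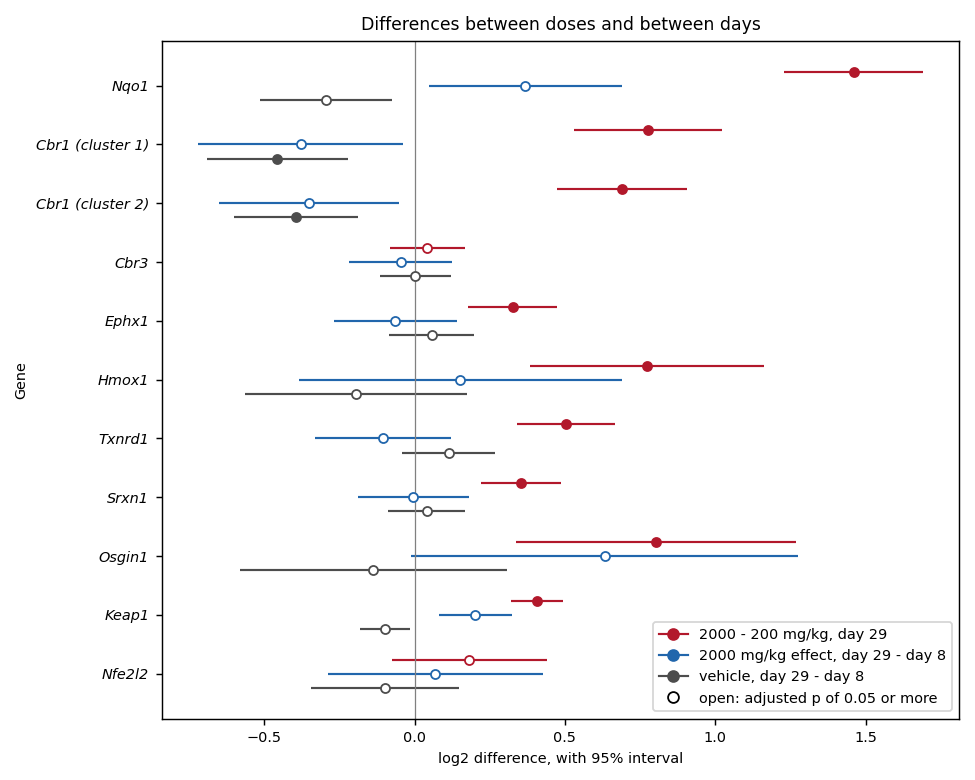
Log2 difference (horizontal axis) with its 95% interval for each of the 11 clusters (vertical axis), for 2000 mg/kg minus 200 mg/kg at day 29, for the 2000 mg/kg effect at day 29 minus that at day 8, and for vehicle at day 29 minus day 8. Filled points passed the test. The dose difference is filled for 9 clusters, from 0.33 for Ephx1 to 1.46 for Nqo1, and the change of effect between days is open for all 11.

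The other listed NRF2 target genes gave the setting of these 10. Of 36 listed, 31 were measured, and 29 rose at day 8, 25 rose at day 29 and 13 rose at 200 mg/kg, with 0 falls each time. At an unadjusted p in limma, 0 were lower at day 8, and 1, Gstm3, at each dose of day 29. Over all clusters, 9.32% rose and 9.32% fell at day 8, 12.1% and 9.55% at 2000 mg/kg on day 29, and 1.37% and 1.42% at 200 mg/kg. The median change of the list was 0.80 at day 8, 0.20 at 200 mg/kg and 0.77 at 2000 mg/kg on day 29. The 11 clusters had medians of 0.87, 0.19 and 0.77 in the same comparisons. This list was assembled with earlier results of these animals known, so its direction is not independent evidence.

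The largest changes in the list were of the size of that of Nqo1 or above it. At 2000 mg/kg on day 29 the aldo-keto reductase Akr1b8 rose by 4.97 ± 0.23, the conjugate exporter Abcc3 by 4.40 ± 0.14 and the glutathione transferase Gsta3 by 4.00 ± 0.18. Akr7a3, an aldehyde reductase, rose by 2.66 ± 0.14 and Gstp1, another glutathione transferase, by 2.36 ± 0.15, beside 2.61 ± 0.11 for Nqo1. These genes split at 200 mg/kg: Abcc3, Gsta3 and Akr7a3 rose by 3.11 ± 0.13, 2.56 ± 0.17 and 1.48 ± 0.13, whereas Akr1b8 and Gstp1 had 0.13 ± 0.22 and 0.38 ± 0.15 (adjusted p = 0.885 and 0.192). Nqo1 had 1.15 ± 0.11 at that dose, and Cbr1, Hmox1 and Txnrd1 passed the test at 2000 mg/kg but not at 200 mg/kg.

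**Figure D4:**
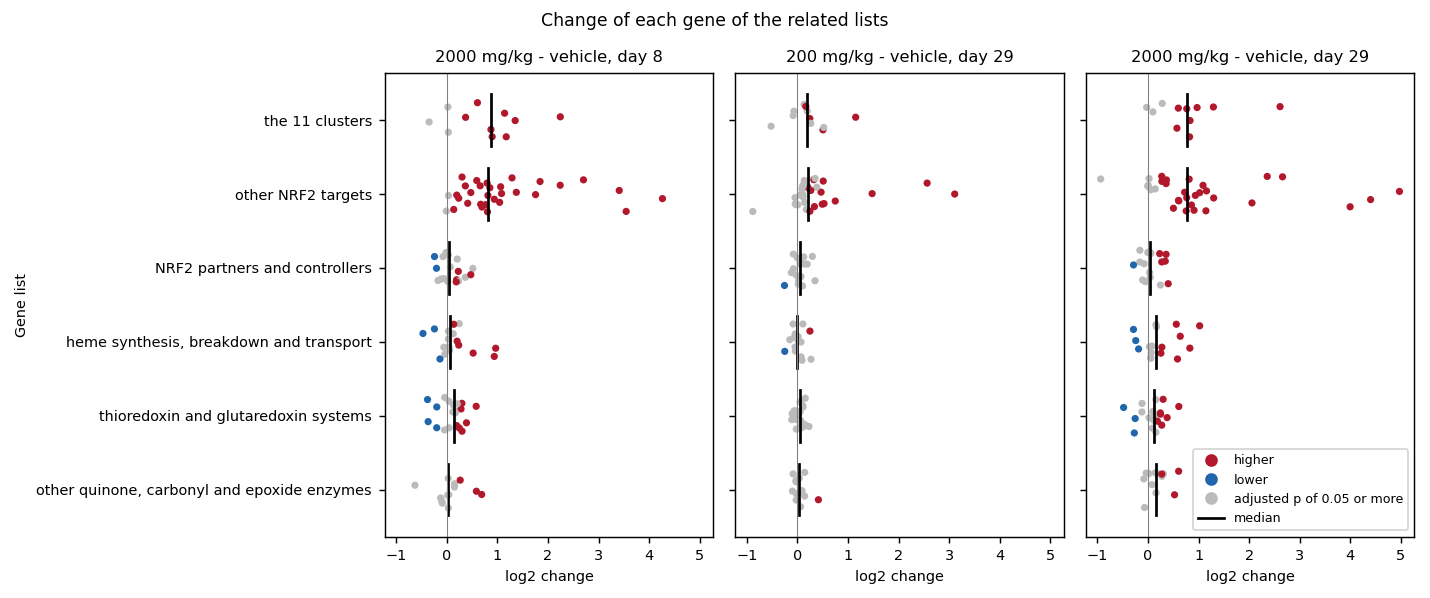
Log2 change of each measured gene (horizontal axis) in 6 lists of genes (vertical axis), in a panel each for 2000 mg/kg at day 8, 200 mg/kg at day 29 and 2000 mg/kg at day 29, all minus vehicle. Each point is a gene, except that in the row of the 11 clusters each point is a cluster. Points are coloured by whether they passed the test and in which direction, and the black line is the list's median. The 11 clusters and the other NRF2 targets have medians of 0.77 at 2000 mg/kg on day 29, and the other 4 lists have medians between 0.04 and 0.16.

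At 2000 mg/kg the markers of further liver cell types differed too. Over all clusters, 9.32% rose and 9.32% fell at day 8, and 12.1% rose and 9.55% fell at day 29. Of 8 stellate cell markers 6 fell at day 29, led by Lrat (-1.40 ± 0.14), Pdgfrb (-0.97 ± 0.10) and Col3a1 (-0.86 ± 0.11), and 3 fell and 1 rose at day 8. At an unadjusted p under 0.05 in limma, 1 of the 8 was higher at day 29. The stellate mean per animal ranged from -0.44 to -0.27 in the 2000 mg/kg animals at day 29, against 0.03 to 0.52 in vehicle animals. Of 11 hepatocyte markers 8 fell at day 8 and 5 at day 29, led at day 29 by Asgr1 (-0.60 ± 0.08), Cps1 (-0.39 ± 0.06) and F2 (-0.30 ± 0.04). The hepatocyte mean per animal ranged from -0.13 to -0.07 in the 2000 mg/kg animals at day 29, against 0.04 to 0.10 in vehicle animals. Of 4 endothelial, 5 red cell and 9 lymphoid markers, 2, 2 and 3 fell at day 8, and 0, 0 and 0 fell at day 29. At an unadjusted p under 0.05 in limma, 2, 1 and 0 were lower at day 29. The means of these 3 lists were 0.24, 0.53 and 0.16 in vehicle animals at day 8, the highest of the 5 groups each time. The part of these cell type markers in the changes of the 10 genes was not tested.

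The genes whose values lay nearest to a gene over the 29 animals were found by the root mean square of the log2 difference, where 0 would mean equal values. For Txnrd1 they were Gclm at 0.141, a cluster of Abcc4 at 0.165, Ubqln2 and Dusp13b at 0.166 and Irak1 at 0.168. At 2000 mg/kg on day 29 that Abcc4 cluster changed by 0.61, and another Abcc4 cluster by 1.30. Gclm, the modifier subunit of the enzyme that starts glutathione synthesis, had changes of 0.85, 0.14 and 0.72 at 2000 mg/kg on day 8, 200 mg/kg and 2000 mg/kg on day 29, beside 0.87, 0.26 and 0.77 for Txnrd1. For Hmox1 they were Gsr at 0.316, Zmynd12 at 0.318, Entpd5 at 0.330, Pir at 0.336 and Cavin3 at 0.337. For Nqo1 they were Csmd1 at 0.323, Derl3 at 0.345, Ces2a at 0.354, Zdhhc2 at 0.391 and Slc17a3 at 0.393. Gsr, glutathione reductase, changed by 1.06 at day 8 and 1.15 at day 29 at 2000 mg/kg, beside 1.14 and 1.29 for Hmox1. This measure favours genes of like spread, and it was computed on the same animals that show the dose effect.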

How the data were processed

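Per the labels, liver RNA of each rat was hybridised to 1 array. The authors deposited log2 values, each row centred on its own median, in 1 table. PLIER and MAS5 appear in the submitters' processing notes without a version. How arrays were normalized, and whether an offset preceded the log, is not stated there. The rounding of the values fits stored log2 signals of 8 or more in all animals for 7 of the 11 clusters. It does not for Nqo1, Hmox1, Srxn1 and Cbr3, whose folds an offset would shrink most. No slide or scan date was used here, and batches were not tested.

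Groups were compared in limma 3.58.1 (R 4.3.3) with 1 mean for each of 5 groups, empirical Bayes moderation without trend, two-sided p-values and Benjamini-Hochberg adjustment within each of 6 comparisons. The procedure was tested on simulated data with independent normal noise for each cluster, which do not copy any correlation between clusters. Symbols are those of the platform annotation. In the lists, a gene with several clusters was read from the lowest probe number, and some genes are in 2 lists.

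Members and lists were chosen with earlier results of these data known. All member clusters are named. From each list up to 5 called genes with the largest change at 2000 mg/kg on day 29, and up to 2 moving the other way, are named, with the 5 nearest genes of Nqo1, Hmox1 and Txnrd1. Blvra, Gstm3, Marco, Clec4f, Prdx1, Prdx3 and Prdx6 were named after their values were seen. Same-numbered animals were about as alike (median r of 0.00992 over 56 pairs) as other animals (0.00359 over 280 pairs). Single same-numbered pairs had r from -0.28 to 0.30. The main fit did not use the numbers as pairs, and these correlations cannot show that no animals shared a batch. No 2 arrays correlated above 0.725. Alternatives were quantile normalization, array medians set to 0, single-symbol clusters, fits of only the compared groups, trended and robust moderation, weights per array, a replicate block, a threshold of 0.01, and leaving out each animal. Plots used matplotlib 3.10.9.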

Additional observations from a re-analysis of the deposited data

Results flagged for a closer look

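Of 55 groups of values (11 clusters in 5 groups), 2 held an animal farther from the rest of its group than Dixon's test allows at the 95% level, where chance gives about 1 in 20. Both were Txnrd1, and both animals were the lowest of their 2000 mg/kg group. At day 8 replicate 1 had a log2 value of 0.232, and the other 5 animals ran from 0.539 to 0.704. At day 29 replicate 1 had 0.312, and the other 4 animals ran from 0.573 to 0.646. These are different animals, and the cause was not tested.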

How the results depend on the processing

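Of 1353 values of the 11 clusters by comparison and setting, 1311 kept their side of the threshold, 34 lost the call, 8 gained it and 0 reversed. Among the 1311, 28 differed in sign and were called under neither setting. The member counts at 2000 mg/kg against vehicle stayed at 8 on both days when any single animal was left out. The cause of the following moves was not tested. Under quantile normalization 2 member clusters were called at 200 mg/kg, without Srxn1 (adjusted p = 0.0568) and Keap1 (adjusted p = 0.0611), and 102 clusters for the change between days. With only the groups compared, 340 clusters were called at 200 mg/kg and 136 between vehicle days, with 0 members. Osgin1 between doses (adjusted p = 0.0604) and Keap1 at 200 mg/kg (adjusted p = 0.103, and 0.0725 with trend and robust settings) were lost there. With array weights 673 clusters were called for the change between days, with 1 member, Keap1 (adjusted p = 0.0446), and 1773 between vehicle days. Txnrd1 passed at 200 mg/kg with array medians set to 0 (adjusted p = 0.0478) and over single-symbol clusters (adjusted p = 0.0432). At an adjusted p under 0.01 the counts over all clusters were 3244 at 2000 mg/kg on day 8, 277 at 200 mg/kg, 3754 at 2000 mg/kg on day 29, 1364 between doses, 28 for the change between days and 77 between vehicle days, with 2 members at 200 mg/kg and 0 between vehicle days. Without single animals, calls at 200 mg/kg ranged from 436 to 1102 (members 2 to 5), between doses from 1755 to 2813 (members 8 to 9), for the change between days from 76 to 563 (members 0 to 1) and between vehicle days from 254 to 2141 (members 0 to 3), the highest of the last 2 without vehicle day 29 replicate 2. With the replicate block the member counts were 8, 4, 8, 9, 0 and 2 in the order of 2000 mg/kg on day 8, 200 mg/kg, 2000 mg/kg on day 29, between doses, change between days and vehicle days, the same counts as without it. The number of arrays limits what could be seen at 200 mg/kg, where the SE of Hmox1 was 0.18 and that of Osgin1 0.22.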
